A study of Homo sapiens with 24 samples.

Results

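The comparison described here asks whether lowering WDR77 alters the response of a gene to androgen. It was computed for each gene as the R1881 response in cells with WDR77 siRNA minus the R1881 response in cells with control siRNA. It used the 12 siRNA libraries of the series' 24. All were LNCaP cells, an established line of androgen-dependent prostate adenocarcinoma, transfected with siRNA and then kept in androgen-deprived medium. R1881, a synthetic androgen, was given at 5 nM for 48 h, and vehicle was ethanol. The 4 groups had 3 libraries each, stated by the submitters to be biological triplicates: control siRNA with vehicle (siCtrl vehicle, libraries S7, S21 and S35), control siRNA with R1881 (S8, S22, S36), WDR77 siRNA with vehicle (siWDR77 vehicle, S9, S23, S37) and WDR77 siRNA with R1881 (S10, S24, S38). The S numbers are those in the sample labels. How many siRNAs against WDR77 were mixed is not given in the sources used here. The other 12 libraries, from a separate transfection study, received a construct for the WDR77-derived peptide P3 or an empty vector, with the same hormone treatment, and are used only where named.

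WDR77, also called MEP50, is a WD-repeat protein that pairs with the arginine methyltransferase PRMT5 in the methylosome, which methylates histones and the Sm proteins of the splicing machinery, and it is also known as a cofactor in androgen signalling. Androgen activates genes of secretion and lipid metabolism such as KLK3, while in androgen-deprived LNCaP cells a strong dose of androgen lowers many genes of cell division. A gene can therefore change its response in several ways: an induced gene can rise more or less, and a repressed gene can fall more or less.

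The 12 libraries held 16665915 to 24029882 gene counts, and 17893 of the 60649 listed features passed the filter on low counts. All 16 luminal epithelial markers found in the table were detected in all 12 libraries. Of the basal markers, the keratins KRT5 and KRT17 were at 0 counts in all 12. The basal keratin KRT14 and the basal markers ITGA6, ITGB4 and NGFR were detected in all 12, and KRT15, TP63 and CD44 in only part of them. One library, siCtrl vehicle S35, stood apart from its 2 partners. Mitochondrially encoded genes took 8.40% of its counts against 5.39% to 6.00% in the other 11. Its summed level of 34 mitosis genes was 639 CPM (counts scaled to library size, with TMM factors) against 1358 in S21 and 1348 in S7, close to the 543 to 597 CPM of the siCtrl libraries with R1881. The summed level of androgen-induced genes in S35 was not like those libraries. It was 5033 CPM, against 5542 in S21, 5568 in S7 and 37456 to 41838 in the siCtrl libraries with R1881. Of all tested genes, 36.9% were lower and 36.8% higher in S35 than in both partners. Because of the mitochondrial share and the mitosis genes of S35, the difference of responses or its adjusted p is given from both fits for the genes described in detail. Fewer dividing cells and less RNA of the mitosis genes per cell cannot be told apart in bulk RNA.

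WDR77 itself (chromosome 1, positions 111439890 to 111449376, minus strand, GRCh38) was read at 46.7, 41.7 and 46.6 CPM in siCtrl vehicle libraries S21, S7 and S35 and at 67.3, 66.1 and 63.8 CPM in siCtrl R1881 libraries S22, S36 and S8. With WDR77 siRNA it was at 14.9, 13.3 and 11.3 CPM in vehicle (S23, S37, S9) and at 15.6, 13.4 and 13.8 CPM with R1881 (S10, S24, S38). The knockdown libraries lay below every control library in both hormone states. R1881 raised WDR77 in siCtrl cells by 0.55 ± 0.09 (log2 fold change ± SE, n = 3 libraries a group, adjusted p = 7.1e-06) and was not called in siWDR77 cells (0.11 ± 0.10, adjusted p = 0.378). The difference of those responses was -0.44 ± 0.13 and missed the threshold (adjusted p = 0.294, and 0.139 without S35). Exons of WDR77 overlap those of ATP5PB on the other strand over 12.5% of its exonic length and those of AL390195.1 on the same strand over 24%, and the strand setting of the counting is not given in the sources used here.

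The hormone moved about as many genes with WDR77 lowered as without. R1881 changed 9143 of the 17893 genes in siCtrl cells (51.1% of those tested, 4601 higher and 4542 lower at an adjusted p under 0.05) and 9518 in siWDR77 cells (53.2%, 4951 higher and 4567 lower). Without S35 the counts were 8856 of 18444 (48%) and 9879 (53.6%). No gene passed the same threshold for a difference between those responses across all 12 libraries (percent called 0), with the quasi-likelihood test of edgeR. At an unadjusted p under 0.05 there were 1484 genes (8.29%), 920 with a higher and 564 with a lower response. DESeq2 called 54 genes on the same libraries, and limma with voom and library weights called 0. With edgeR, 112 were called without the filter on low counts, 40 with all 24 libraries in the fit and 16 with a block on runs of the sample number. The smallest adjusted p was 0.0569, shared by PFKFB2, whose response was 0.57 ± 0.10 higher, and NDRG1, whose response was 0.56 ± 0.10 lower (log2).

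Without S35, 43 of 18444 genes had a changed response (0.233% of those tested), 14 higher and 29 lower in siWDR77 cells. These 43 are described because the comparison was defined with and without S35; they became known as a set only after the all-library count was seen to be 0. All 43 had the same sign with all 12 libraries, where 13 of the 14 and 26 of the 29 reached an unadjusted p under 0.05. Among the 29, S35 lay below both partners in 21 and above both in 8, and among the 14 in 8 and 3. Of the 29 genes with a lower response, 22 fell more steeply under R1881, 3 rose less, 3 moved in opposite directions in the arms, and 1 fell only in siWDR77 cells by the threshold. Of the 14 with a higher response, 12 rose more and 2 fell less. The genes nearest the threshold inside it were SGK1 (adjusted p = 0.0463) and GPR158 (0.0470), and those nearest outside were ABCA12 (0.0541) and DLGAP5 (0.0557).

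The set also depends on other libraries. Leaving out a second library as well gave 6 calls without S21, 11 without S7, 12 without S37, 14 without S22, 27 without S38 and 28 without S36, and 38 to 60 for each of the other 5. CDC20, MKI67 and NDRG1 were called in all 11 of these fits and in all 6 fits without S35 that changed the normalization, the filter, the tool, the block or the libraries pooled. Other genes described below were less stable. SGK1 was called in 1 of the 11, SRD5A1, SPCS3, ELOVL7, SIPA1L2, GULP1 and DDC in 2, and LDHA, PGM3 and RDH10 in 3. SGK1, DDC, LDHA and ACKR3 were called in 4 of the 6.

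**Figure D1:**
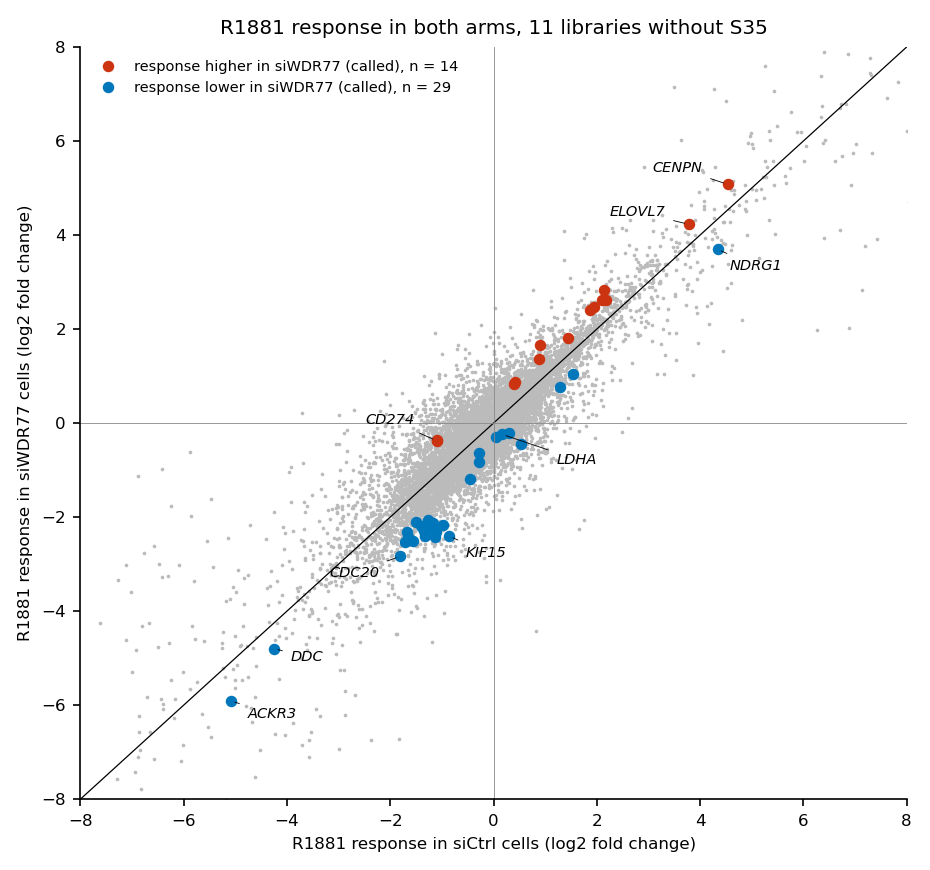
R1881 response (log2 fold change) in siCtrl cells on the x axis against that in siWDR77 cells on the y axis, fitted without S35; each grey point is 1 of 17893 genes, of which 28 lie outside the axes, and the line marks equal responses. Blue points are the 29 genes called lower and red points the 14 called higher; the largest blue group lies between -0.86 and -1.81 on the x axis and below -2 on the y axis.

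Among the 29 were 5 members of the mitosis list and 1 of the DNA replication list, and other genes known from cell division, named here after their values were seen. Without S35, R1881 lowered them in control cells and lowered them further when WDR77 was knocked down. With all 12 libraries none of their differences was called, and the fall in siCtrl cells was not called for DTL (adjusted p = 0.294), KIF15 (0.247), MCM10 (0.118), EXO1 (0.098) or ANLN (0.0526). The genes include CDC20, the activator of the anaphase-promoting complex, MKI67, the proliferation antigen Ki-67, the mitotic kinesins KIF15 and KIF2C, the checkpoint kinase BUB1B, the spindle factor TPX2, the condensin subunit NCAPH, the kinetochore subunit SPC24, the cytokinesis protein anillin (ANLN), the replication factor MCM10, the exonuclease EXO1, the cohesin acetyltransferase ESCO2, the DNA polymerase POLQ and the ubiquitin ligase adaptor DTL.

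CDC20 (chromosome 1, 43358955 to 43363203, plus strand) stood at 57.5, 52.3 and 24.1 CPM in siCtrl vehicle (S21, S7, S35) and at 18, 15.3 and 13.7 CPM in siCtrl R1881. With WDR77 siRNA its level was 40.0, 42.8 and 35.7 CPM in vehicle and 5.83, 6.21 and 4.89 CPM with R1881. The 2 R1881 groups did not overlap, and S35 lay below every siWDR77 vehicle library. Without S35, the response was -1.81 ± 0.11 in siCtrl and -2.83 ± 0.11 in siWDR77 cells, a difference of -1.03 ± 0.16 (adjusted p = 0.00154). With S35 the difference was larger, -1.30, but its SE was 0.45 (adjusted p = 0.513).

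MKI67 (chromosome 10, 128096659 to 128126385, minus strand) was at 117, 119 and 45.2 CPM in siCtrl vehicle (S21, S7, S35) and 51.6, 48.0 and 48.1 CPM in siCtrl R1881. In siWDR77 cells it was at 87.2, 94.1 and 83.0 CPM in vehicle and 17.0, 22.9 and 17.7 CPM with R1881. S35 therefore had the MKI67 level of a hormone-treated control library. The responses differed by -0.96 ± 0.12 without S35 (adjusted p = 0.000155) and by -1.27 ± 0.47 with it (adjusted p = 0.546).

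KIF15 (chromosome 3, 44761717 to 44873376, plus strand) had the largest difference of the 43. Its level was 8.84, 11.4 and 3.76 CPM in siCtrl vehicle (S21, S7, S35), 5.26, 5.62 and 6.04 CPM in siCtrl R1881, 9.67, 10.7 and 9.73 CPM in siWDR77 vehicle and 1.43, 2.87 and 1.53 CPM in siWDR77 R1881. The vehicle groups were alike apart from S35, and the R1881 groups did not overlap. Its responses differed by -1.55 ± 0.28 without S35 (adjusted p = 0.0125) and by -1.86 ± 0.52 with it (adjusted p = 0.379).

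**Figure D2:**
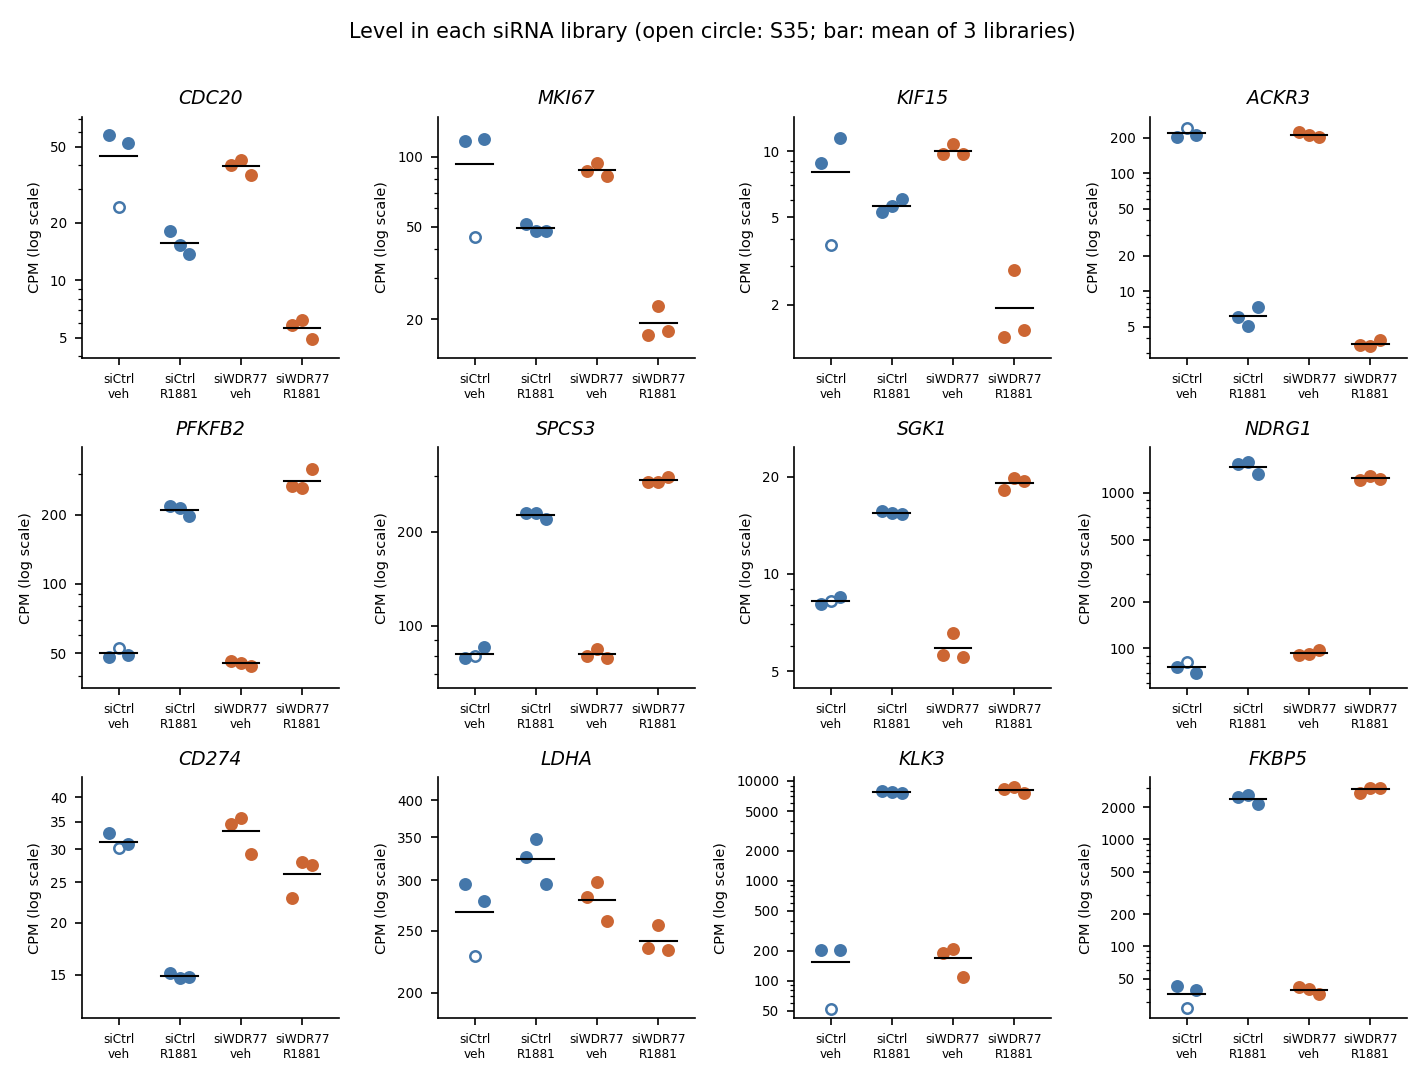
Level of 12 genes in each siRNA library in TMM-scaled CPM on a log axis, grouped as siCtrl vehicle, siCtrl R1881, siWDR77 vehicle and siWDR77 R1881; bars are means of 3 libraries and the open circle is S35. CDC20, MKI67 and KIF15 are lowest in siWDR77 R1881, PFKFB2, SPCS3 and SGK1 are highest there, KLK3 groups overlap under R1881, and all 3 FKBP5 values in siWDR77 R1881 lie above those in siCtrl R1881.

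The other dividing-cell genes had differences between -0.64 ± 0.12 (TPX2, adjusted p = 0.0125) and -1.30 ± 0.26 (EXO1, adjusted p = 0.0220) without S35; with it TPX2 was at -0.92 ± 0.42 and EXO1 at -1.64 ± 0.53 (adjusted p = 0.615 and 0.479). Without S35, 5 of 34 genes of a mitosis list were called lower and 0 higher (CDC20, KIF2C, BUB1B, TPX2 and ANLN), where 0.157% of all genes were called lower. A lower response with an unadjusted p under 0.05 was found for 25 of the 34 without S35, against 4.23% of all genes. With S35 it was found for 12 of the 34, against 3.15% of all genes. The median of the list was -0.70 without S35 and -0.99 with it, beside 0.00 and 0.02 over all genes tested, and 33 of 34 values were negative in either case. The median SE over the list was 0.45 with S35 and 0.19 without, and over all genes 0.197 and 0.202. The median response of the list in siCtrl cells was -1.06 with S35 and -1.39 without. DNA replication genes had a smaller shift, with 1 of 41 called lower without S35 (MCM10, -1.19 ± 0.22, adjusted p = 0.0125, against -1.53 ± 0.55 and 0.520 with S35). At an unadjusted p under 0.05, 18 of the 41 were lower without S35 and 8 with it. Their median was -0.28 (-0.47 with S35).

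WDR77 siRNA changed 273 genes in vehicle (1.53% of those tested, 0.682% higher and 0.844% lower) and 1291 under R1881 (7.22%, 3.9% higher and 3.31% lower) over 12 libraries. Without S35 these shares were 2.59% (1.08% higher, 1.51% lower) and 10.8% (4.75% higher, 6.00% lower). Without S35, WDR77 siRNA lowered 29 of 34 mitosis genes and 29 of 41 replication genes under R1881 (6.00% of all genes were lower), against 3 and 5 in vehicle (1.51%). With S35 included, the counts fell to 4 and 4 under R1881 and to 0 and 0 in vehicle. S35 is not among the libraries compared under R1881 and enters there only through the shared spread, the scaling and the filter. The median siRNA effect under R1881 was -0.94 with S35 and -0.95 without it over the mitosis list. Over the replication list it was -0.53 and -0.54. Among the 29 genes themselves, 28 were lower under R1881 and 6 lower and 2 higher in vehicle, and of the 14, 11 were higher under R1881 and 3 lower in vehicle. These counts share libraries with the comparison that chose the genes and only describe it.

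The cell cycle genes homology region (CHR, TTTGAA) and the NF-Y box (CCAAT) are elements known from promoters of genes that peak in G2 and M phase. The promoters of 3 of the 29 genes with a lower response are shown as examples. Each is the 250 bases before the start site in RefSeq (GRCh38.p14), 5′ to 3′ on the strand of the gene, with CHR and NF-Y letters on either strand in capitals. They are chr1:43358731-43358980 (plus strand) for CDC20, chr10:128126424-128126673 (minus strand) for MKI67 and chr15:40160819-40161068 (plus strand) for BUB1B.
CDC20: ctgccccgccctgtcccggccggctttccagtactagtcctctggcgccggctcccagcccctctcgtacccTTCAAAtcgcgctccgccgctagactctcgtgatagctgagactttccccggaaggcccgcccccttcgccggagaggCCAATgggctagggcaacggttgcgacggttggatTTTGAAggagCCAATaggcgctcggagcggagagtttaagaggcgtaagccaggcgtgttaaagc
MKI67: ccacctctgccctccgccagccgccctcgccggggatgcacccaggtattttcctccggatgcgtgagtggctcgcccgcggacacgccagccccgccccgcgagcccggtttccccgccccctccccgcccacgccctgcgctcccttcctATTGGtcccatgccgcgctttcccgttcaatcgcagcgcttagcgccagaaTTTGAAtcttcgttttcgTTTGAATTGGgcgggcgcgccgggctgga
BUB1B: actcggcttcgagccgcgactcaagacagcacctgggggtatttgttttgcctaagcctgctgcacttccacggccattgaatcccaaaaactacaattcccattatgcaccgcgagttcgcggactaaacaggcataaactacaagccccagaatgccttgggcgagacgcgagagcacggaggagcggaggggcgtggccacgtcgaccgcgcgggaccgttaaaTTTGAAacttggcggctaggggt
In CDC20 the CHR at -65 was followed by an NF-Y box at -55 counted from the start site, and in MKI67 a CHR at -29 and a reversed NF-Y box at -24 overlapped. BUB1B held a CHR at -23 and no NF-Y box. Promoters of 300 bases (250 before and 50 after the start) were found for 21 of the 29 genes with a lower response and for 11372 of the symbols tested. CHR letters were present in 8 of the 21 (38.1%) against 9.61% of all, and CRE letters (TGACGTCA) in 5 (23.8%) against 3.17%. The NF-Y box was present in 7 (33.3%) against 36.9% and the E2F-type letters (TTTCCCGC or TTTGGCGC) in 2 (9.52%) against 3.6%. CHR and NF-Y letters together were present in only 2 of the 21 (9.52%), CDC20 and MKI67, against 4.1% of all. Among the 14 genes with a higher response 10 had a promoter, of which 2 held CHR, 5 held NF-Y and 0 held CRE or E2F-type letters. In the mitosis list, 18 of the 27 promoters found held CHR letters (66.7%) and 20 held NF-Y (74.1%), while in the DNA replication list 1 of 35 held CHR (2.86%) and 17 held E2F-type letters (48.6%). All motifs were searched on both strands, and a match describes letters only.

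Repressed genes outside the cell cycle also fell further. ACKR3 (chromosome 2, 236567787 to 236582358), the CXCL12-scavenging receptor also called CXCR7, was at 201, 212 and 239 CPM in siCtrl vehicle (S21, S7, S35) and 6.03, 5.08 and 7.32 CPM in siCtrl R1881. It was at 221, 212 and 200 CPM in siWDR77 vehicle and at 3.49, 3.40 and 3.82 CPM in siWDR77 R1881. Vehicle levels overlapped and R1881 levels did not. The fall was deeper by 0.82 ± 0.14 on the log2 scale without S35 (difference -0.82, adjusted p = 0.00724) and the difference was -0.73 ± 0.15 with S35 (adjusted p = 0.0900). DDC, aromatic L-amino acid decarboxylase, differed by -0.55 ± 0.12 (adjusted p = 0.0326, and -0.64 ± 0.15 and 0.178 with S35). ACKR3 and DDC were the only members called of 27 androgen-repressed genes tested without S35 (0.157% of all genes were called lower), and the median of that list was -0.14. DESeq2 over all 12 libraries also called PCDH11Y (-0.91, adjusted p = 0.00120) and FOLH1 (-0.26, adjusted p = 0.0231) of that list. For PCDH11Y edgeR gave -0.89 ± 0.20 with S35 (adjusted p = 0.193) and -0.89 ± 0.23 without it (adjusted p = 0.254). PEG3, an imprinted zinc finger gene (difference -0.60 ± 0.10, adjusted p = 0.00324, and -0.77 ± 0.21 and 0.354 with S35), was lower with WDR77 siRNA in both hormone states without S35 (-0.36 and -0.96, adjusted p = 0.00185 and 6.56e-11). With S35 its vehicle value was -0.18 (adjusted p = 0.673) and its R1881 value -0.95 (adjusted p = 0.00509). The engulfment adaptor GULP1 differed by -0.36 ± 0.08 (adjusted p = 0.0367, and 0.106 with S35).

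Of 30 genes of cholesterol synthesis and its SREBP control, 9 had a higher and 1 a lower response at an unadjusted p under 0.05 without S35 (3.68% and 4.23% of all genes), with a median of 0.12, and 8 and 0 with S35, with a median of 0.14. INSIG2, which retains the SREBP machinery in the endoplasmic reticulum, had a difference of 0.52 ± 0.12 over 12 libraries and SCAP, the SREBP escort, 0.33 ± 0.10, neither past the threshold (adjusted p = 0.130 and 0.315). Without S35 they were at 0.41 and 0.27 (adjusted p = 0.142 and 0.385). R1881 raised 26 of the 30 in siCtrl cells and 27 in siWDR77 cells, with and without S35, where it raised 24.1% and 26.4% of all genes without S35.

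Genes with a stronger rise included enzymes of sugar and lipid metabolism and the secretory pathway. PFKFB2, which makes the glycolysis activator fructose 2,6-bisphosphate (chromosome 1, 207034366 to 207081024, plus strand), was at 48.3, 49.3 and 52.8 CPM in siCtrl vehicle (S21, S7, S35) and at 217, 214 and 197 CPM in siCtrl R1881. In siWDR77 cells it was at 46.2, 45.2 and 44.1 CPM in vehicle and 267, 260 and 315 CPM with R1881. S35 was close to its partners here, and the R1881 groups did not overlap. Its responses differed by 0.51 ± 0.10 without S35 (adjusted p = 0.0125) and by 0.57 ± 0.10 with it (adjusted p = 0.0569). The glutamine synthetase GLUL differed by 0.43 ± 0.08 (adjusted p = 0.0150), and PGM3, an enzyme of UDP-GlcNAc synthesis, by 0.43 ± 0.09 (adjusted p = 0.0408). The fatty acid elongase ELOVL7, which R1881 raised by 3.78 ± 0.08 in siCtrl cells, differed by 0.45 ± 0.10 (adjusted p = 0.0439). SPCS3, a subunit of the signal peptidase complex, differed by 0.37 ± 0.08 (adjusted p = 0.0326), and the deubiquitinase USP33 by 0.49 ± 0.09 (adjusted p = 0.0125). GLB1L2, SIPA1L2 and CENPN rose more by 0.52, 0.54 and 0.55. With S35 none of these was called: the differences were 0.42 for GLUL, 0.52 for PGM3, 0.37 for SPCS3, 0.46 for USP33 and 0.56 for SIPA1L2 (adjusted p = 0.0888 for each), 0.45 for GLB1L2 (0.238), 0.36 for ELOVL7 (0.394) and 0.38 for CENPN (0.718). CENPN is a centromere protein gene that did not follow the other centromere and kinetochore genes: R1881 raised it by 4.53 ± 0.09 in siCtrl cells. It had overlapping exons with CMC2 on the other strand over 12.8% of its exonic length.

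For SRD5A1 and SGK1 the siRNA effect was called in vehicle and not under R1881, with and without S35. SRD5A1, the steroid 5-alpha reductase that converts testosterone to dihydrotestosterone, was at 46.6, 46.7 and 48.5 CPM in siCtrl vehicle (S21, S7, S35) and at 35.2, 36.4 and 33 CPM in siWDR77 vehicle. Under R1881 it reached 61.2, 63.5 and 62.2 CPM in siCtrl and 61.9, 63.0 and 69.4 CPM in siWDR77 cells. The vehicle groups did not overlap and the R1881 groups did. WDR77 siRNA lowered SRD5A1 by 0.41 on the log2 scale in vehicle without S35 (adjusted p = 0.00124) and the value under R1881 was 0.04 (adjusted p = 0.789). Its responses differed by 0.45 ± 0.10 without S35 (adjusted p = 0.0402) and by 0.49 ± 0.10 with it (adjusted p = 0.0888). SGK1, a kinase gene shared by glucocorticoid and androgen signalling, was at 8.05, 8.50 and 8.23 CPM in siCtrl vehicle and 5.62, 6.57 and 5.54 CPM in siWDR77 vehicle, and rose to 15.3 to 15.7 and 18.2 to 19.7 CPM with R1881. Neither hormone state's groups overlapped for SGK1, and its responses differed by 0.77 ± 0.17 without S35 (adjusted p = 0.0463) and by 0.79 ± 0.16 with it (adjusted p = 0.0888).

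NDRG1, a stress and differentiation gene that androgen induces strongly, showed the reverse: its rise was weaker. It was at 75.5, 69.5 and 82.3 CPM in siCtrl vehicle (S21, S7, S35) and 1530, 1571 and 1317 CPM in siCtrl R1881, and at 91.2, 91.9 and 98.1 CPM in siWDR77 vehicle and 1201, 1284 and 1222 CPM in siWDR77 R1881. It began higher and ended lower with WDR77 siRNA, with no overlap between groups in either state. The difference of responses was -0.64 ± 0.09 without S35 (adjusted p = 0.000215) and -0.56 ± 0.10 with it (adjusted p = 0.0569). SMCO4 (-0.52 ± 0.11, adjusted p = 0.0262) and the orphan receptor GPR158 (-0.51 ± 0.11, adjusted p = 0.0470) also rose less without S35. With it their differences were -0.47 and -0.60 (adjusted p = 0.113 and 0.223).

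CD274, which encodes the immune checkpoint ligand PD-L1 (chromosome 9, 5450503 to 5470566, plus strand), and RDH10, a retinol dehydrogenase, fell less. CD274 was at 32.9, 30.9 and 30.2 CPM in siCtrl vehicle (S21, S7, S35) and 15.1, 14.7 and 14.8 CPM in siCtrl R1881. It was at 34.5, 35.8 and 29.2 CPM in siWDR77 vehicle and at 22.9, 28 and 27.5 CPM in siWDR77 R1881. Vehicle levels overlapped, and all 3 knockdown libraries with R1881 lay above all 3 controls. Its fall was -1.11 ± 0.11 in siCtrl and -0.38 ± 0.09 in siWDR77 cells, a difference of 0.73 ± 0.14 (adjusted p = 0.0155, and 0.0888 with S35). RDH10 differed by 0.74 ± 0.16 (adjusted p = 0.0402, and 0.0900 with S35).

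LDHA, TRPV6 and COL26A1 had small responses of opposite sign. LDHA, the lactate dehydrogenase A subunit, was at 296, 278 and 228 CPM in siCtrl vehicle (S21, S7, S35), 326, 348 and 296 CPM in siCtrl R1881, 282, 298 and 259 CPM in siWDR77 vehicle and 235, 256 and 233 CPM in siWDR77 R1881. All siWDR77 R1881 libraries lay below all siCtrl R1881 libraries. R1881 raised LDHA in siCtrl cells by 0.17 (adjusted p = 0.0404) and lowered it in siWDR77 cells by 0.24 on the log2 scale (response -0.24, adjusted p = 0.00103) without S35, a difference of -0.41 ± 0.09 (adjusted p = 0.0437, and 0.223 with S35). TRPV6, an epithelial calcium channel, and COL26A1, a collagen gene, had differences of -0.51 ± 0.10 (adjusted p = 0.0208) and -0.97 ± 0.20 (adjusted p = 0.0260) without S35, and of -0.40 and -0.68 with it (adjusted p = 0.223 and 0.454). LDHA has processed pseudogenes, so part of its reads may be assigned elsewhere. LDHA and NDRG1 were the only ones called of 29 hypoxia and glycolysis genes, of which 13 had a lower and 2 a higher response at an unadjusted p under 0.05 without S35 and whose median was -0.15. Of all genes, 0.157% were called lower, and 4.23% were lower and 3.68% higher at the unadjusted p.

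**Figure D3:**
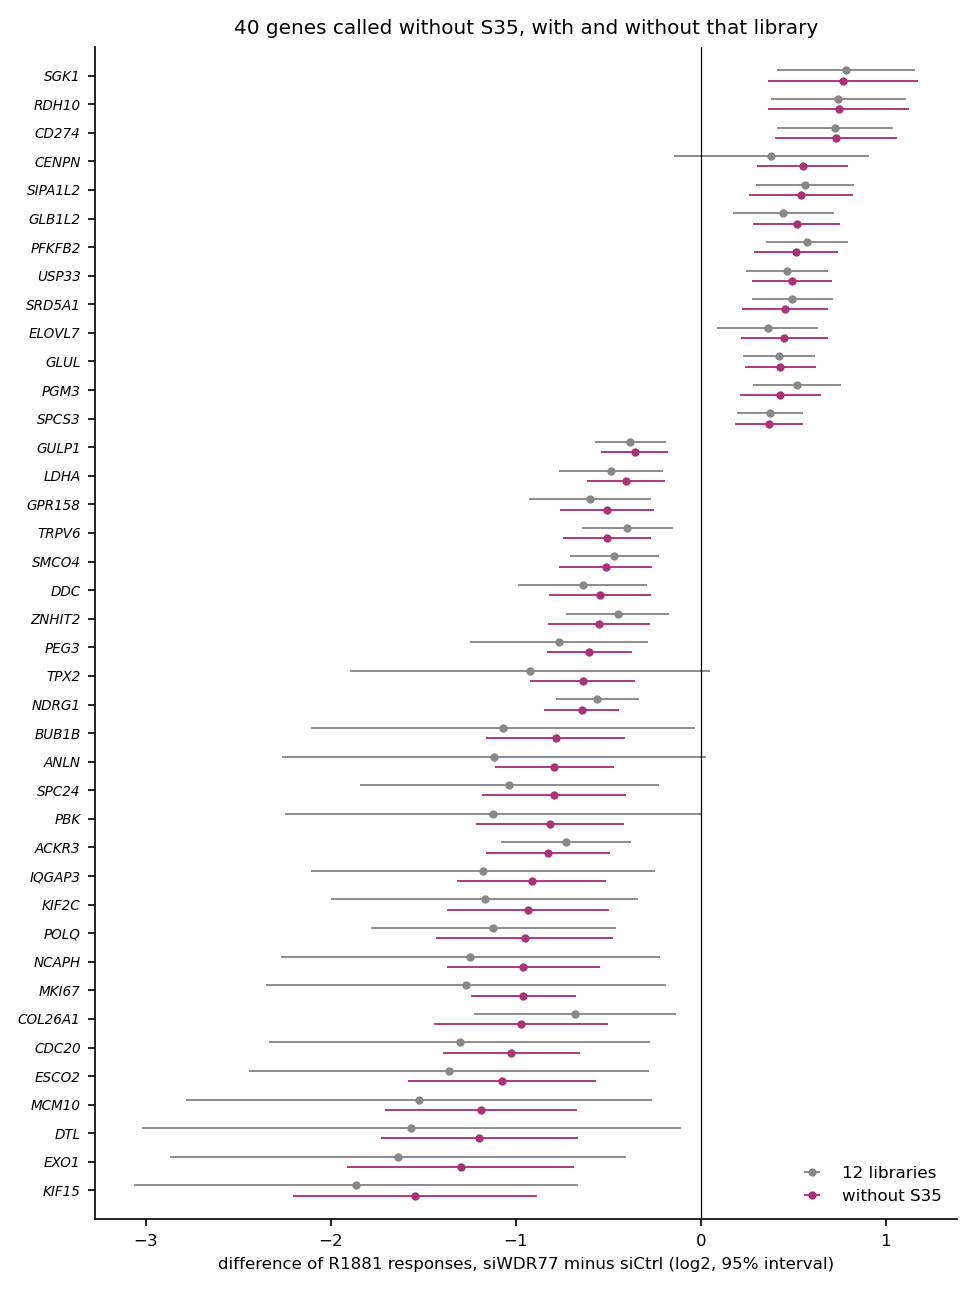
Difference of the R1881 responses, siWDR77 minus siCtrl, on a log2 scale with 95% intervals from the residual degrees of freedom, for 40 of the 43 genes called without S35, in the fit of 12 libraries (grey) and in the fit without S35 (purple). The signs agree for all 40, and the grey intervals of the cell division genes from BUB1B to KIF15 are wider than the purple ones.

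The classical androgen targets kept responses whose difference missed the threshold, with and without S35. KLK3, prostate-specific antigen, was at 204, 203 and 52.6 CPM in siCtrl vehicle (S21, S7, S35), 8007, 7836 and 7655 CPM in siCtrl R1881, 188, 206 and 109 CPM in siWDR77 vehicle and 8339, 8710 and 7538 CPM in siWDR77 R1881. The groups overlapped in both states. The difference of responses was -0.07 ± 0.63 over 12 libraries (95% interval -1.52 to 1.39, adjusted p = 0.993) and 0.32 ± 0.31 without S35 (interval -0.41 to 1.06, adjusted p = 0.877), so a 2-fold larger KLK3 response lay within both intervals. KLK2 differed by -0.15 ± 0.50 (interval -1.31 to 1.01) and by 0.24 ± 0.21 without S35. TMPRSS2 had the smallest SE of these over 12 libraries, at -0.24 ± 0.16 (interval -0.60 to 0.12) and -0.14 ± 0.11 without S35 (interval -0.39 to 0.12). FKBP5, the hormone-induced co-chaperone of steroid receptors, differed by 0.15 ± 0.21 (interval -0.33 to 0.63) and by 0.31 ± 0.10 without S35 (interval 0.07 to 0.55, adjusted p = 0.309). Under R1881 its siRNA effect was called without S35 (0.27, adjusted p = 0.00622) and not with it (0.29, adjusted p = 0.283). Of 58 androgen-induced genes, SGK1 and CENPN were called higher and NDRG1 lower without S35 (0.0759% and 0.157% of all genes), and the median was 0.04 (-0.04 with S35).

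R1881 changed 51.4% of genes in empty-vector cells of the other study, and those changed by more than 2-fold gave a selection made on other libraries. Of 1200 such induced genes tested over 12 siRNA libraries, 64.1% had a positive difference (median 0.11), and of 1341 repressed genes 35.8% (median -0.18), beside 54.9% of all genes (median 0.02). Without S35 the shares were 57.8%, 36.1% and 50.1%, and the medians 0.06, -0.18 and 0.00. Induced genes were called higher in 8 cases and lower in 1, and repressed genes higher in 2 and lower in 19, without S35 (0.0759% and 0.157% of all genes). None were called with all 12 libraries, where 129 induced genes were higher and 28 lower at an unadjusted p under 0.05 (5.14% and 3.15% of all genes), and 39 repressed genes higher and 164 lower.

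The other gene lists had few or no called members. Without S35, 1 of 33 ER-Golgi transport genes (SPCS3) and 1 of 30 fatty acid and lipid storage genes (ELOVL7) were called higher, as were 0.0759% of all genes. No member was called among PRMT5 methylosome and Sm assembly genes, G1 control and E2F factors, p53 targets, the unfolded protein response, interferon genes, immediate early genes, MYC and ribosome assembly targets, one-carbon and polyamine enzymes, TGF-beta and IGF signalling, autophagy or mitochondrially encoded genes. Only 0.233% of all genes were called without S35, so lists of this size can easily hold no call. The medians of these 11 lists lay between -0.13 and 0.11 without S35. At an unadjusted p under 0.05 without S35, 5 of 32 unfolded protein and stress response genes and 6 of 33 ER-Golgi genes were higher, and 0 lower. Of 29 G1 and E2F genes, 2 were higher and 5 lower, beside 3.68% and 4.23% of all genes. Of 27 MYC and ribosome assembly genes, 4 were lower and 0 higher without S35, and 6 and 0 with it (3.15% and 5.14% of all genes). Their median difference was -0.10 without S35 and -0.17 with it. WDR77 siRNA lowered 22 of the 27 under R1881 and 4 in vehicle without S35 (6.00% and 1.51% of all genes). With S35 these counts were 11 and 1 (3.31% and 0.844%). None of the marker lists for luminal, basal, mesenchymal or neuroendocrine cells had a called member with edgeR. DESeq2 over all 12 libraries called the mesenchymal marker FN1 (-0.84, adjusted p = 0.0352) and the luminal marker FOLH1 (-0.26, adjusted p = 0.0231). It also called TYMS of the one-carbon list (-1.13, adjusted p = 0.0422). The summed level of the mesenchymal markers under R1881 was 606 to 842 CPM in siCtrl and 382 to 468 CPM in siWDR77 libraries, made up mainly of FN1, and its part in the results was not tested. Mitochondrially encoded genes, which mark S35, had a median difference of 0.16 with it and -0.09 without it.

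**Figure D4:**
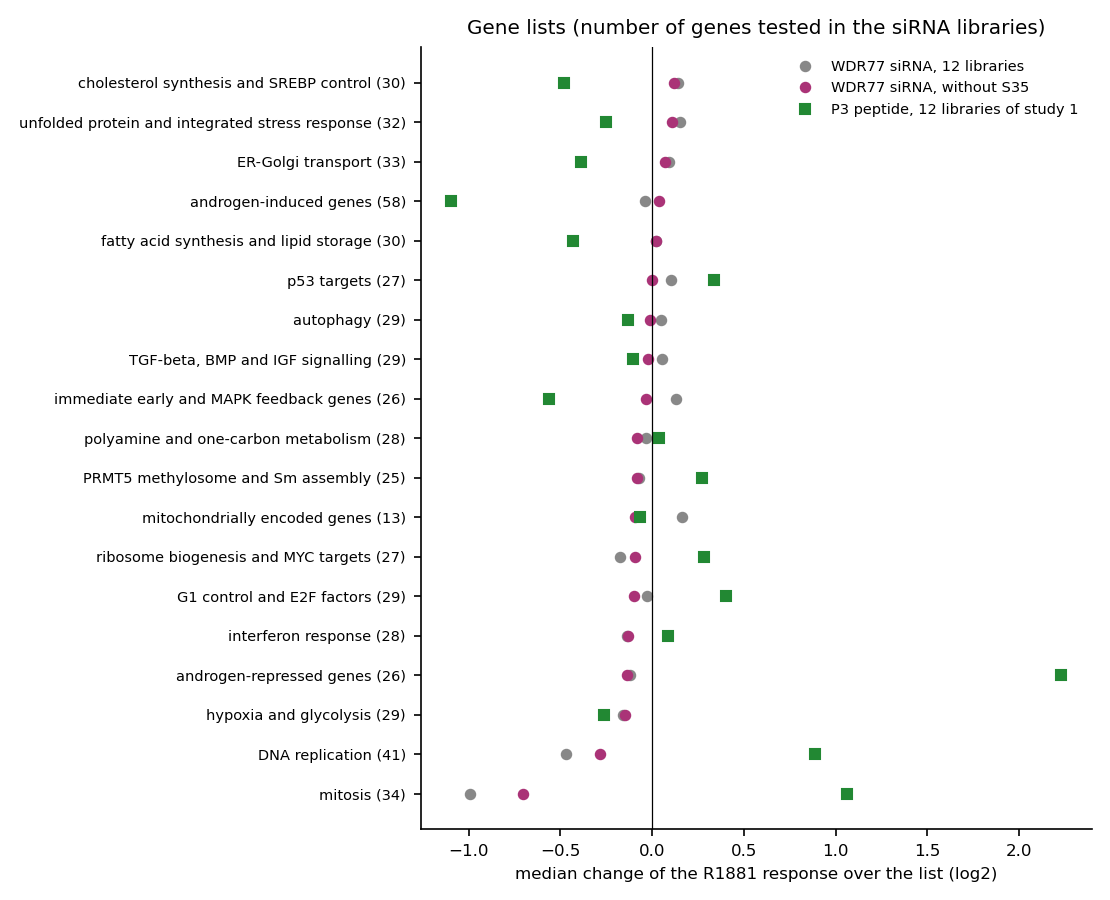
Median change of the R1881 response (log2) over 19 gene lists, by WDR77 siRNA with 12 libraries (grey circles) and without S35 (purple circles) and by the P3 peptide in the other study (green squares); numbers in brackets are genes tested in the siRNA libraries. Mitosis and DNA replication lie at -0.70 and -0.28 for the siRNA without S35 and at 1.06 and 0.89 for P3.

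The P3 peptide is taken from WDR77, and the same difference of responses can be computed for P3 against empty vector. That study shares no library with the siRNA study, but its transfected material differed too (a construct against siRNA), and peptide, transfected material and study cannot be told apart. P3 changed the R1881 response of 4013 of 17772 genes (22.6%), and for most of the 43 genes it did so in the other direction. Of the 29 genes with a lower response after siRNA, 21 had a higher response with P3 and 2 a lower one, where 11.5% and 11.1% of all genes were called. Of the 14 genes with a higher response after siRNA, 10 had a lower response with P3 and 2 a higher one. In CDC20 the fall under R1881 was -1.63 in empty-vector and -0.43 in P3 cells, a change of 1.2 ± 0.09 (adjusted p = 6.42e-14), beside -1.03 ± 0.16 for the siRNA without S35.

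The difference between both changes, tested over all 24 libraries, passed the threshold for 2572 of 18999 genes (13.5%, 1427 higher and 1145 lower in the siRNA study), and for 2472 without S35. It was called lower for 22 of the 29 genes (6.03% of all genes) and higher for 1 of them (NDRG1), and higher for 12 of the 14 (7.51%), counts that reuse the siRNA libraries that chose the genes. For CDC20 it was -2.50 ± 0.44 (adjusted p = 0.000955), for KIF15 -3.12 ± 0.55 (adjusted p = 0.000765) and for PFKFB2 1.42 ± 0.13 (adjusted p = 1.43e-10). Among the lists, P3 raised the response of 32 of 34 mitosis genes (11.5% of all genes) and lowered that of 50 of 58 androgen-induced genes (11.1%). The difference between siRNA and P3 was called lower for 31 mitosis genes (6.03% of all genes) and higher for 41 androgen-induced genes (7.51%). The androgen-induced genes had a median change of -1.10 with P3, but of only 0.04 with siRNA without S35 and -0.04 with it. KLK3 and TMPRSS2 changed by -1.20 ± 0.07 and -1.53 ± 0.06 with P3 (adjusted p = 1.2e-17 and 4.23e-21). In the fit with S35, the difference between siRNA and P3 was 1.14 ± 0.63 for KLK3 (adjusted p = 0.289) and 1.29 ± 0.17 for TMPRSS2 (adjusted p = 4.88e-06). The SE of the siRNA change of KLK3 was 0.63 with S35 and 0.31 without it.

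A few genes changed in the same direction in both studies. CD274 and RDH10 fell less with P3 by 1.06 ± 0.14 and 0.93 ± 0.18 (log2, adjusted p = 2.11e-07 and 6.46e-05), and their siRNA and P3 changes differed by -0.33 ± 0.20 and -0.19 ± 0.24 (adjusted p = 0.312 and 0.705). NDRG1 rose less in both, by a change of -1.83 ± 0.08 with P3, and here the siRNA and P3 changes did differ (1.28 ± 0.13, adjusted p = 5.36e-09). GPR158 rose less in both as well (-0.32 ± 0.08 with P3, adjusted p = 0.00265), with a difference of -0.27 ± 0.15 (adjusted p = 0.283).

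**Figure D5:**
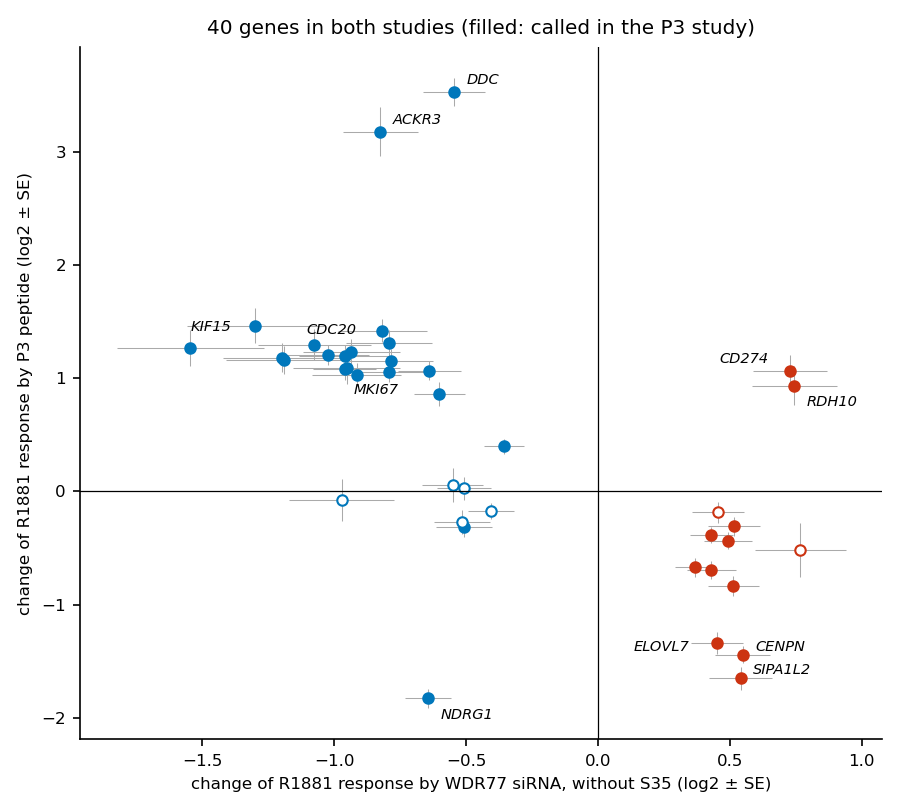
Change of the R1881 response by WDR77 siRNA without S35 (x axis) and by the P3 peptide (y axis), log2 ± SE, for 40 of the 43 genes; filled points were called in the P3 study. Most genes lie at the upper left and lower right, with CD274 and RDH10 at the upper right and NDRG1 lowest at the lower left.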

How the data were processed

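The deposited table holds raw read counts per gene, made by the authors with STAR 2.7.9a and featureCounts of Subread 1.6.4 on GRCh38.p7, per the submitters' processing notes; annotation release and strand setting: not given in the sources used here. Libraries were poly(A)-enriched, per the labels' protocols. Coordinates are from GENCODE 29 (GRCh38), where 58381 of the 60649 feature IDs were found, and promoters from RefSeq.

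The counts of 12 siRNA libraries were fitted as 4 group means in edgeR 4.0.16 (R 4.3.3; filterByExpr, TMM, robust quasi-likelihood test), and the difference of R1881 responses was a contrast of that fit. P-values were adjusted over all genes tested by Benjamini-Hochberg, with a threshold of 0.05; tests are two-sided. DESeq2 1.42.0, limma 3.58.1 (voom with library weights), other size factors, no filter, a block on runs of the sample number, all libraries in 1 fit and leaving out each library were alternatives. The scripts were tested on simulated data. The study 1 libraries were fitted in the same way, and the difference between the studies in 1 fit of 24 libraries. CPM are TMM-scaled. The SE of a single gene was its absolute log2 coefficient divided by the square root of the F statistic of the test. Intervals used that SE and a t value with 8 residual degrees of freedom (7 without S35). They are approximate and need not match the p-values of the quasi-likelihood test.

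The members and gene lists were chosen with earlier results of these data known. Named genes are WDR77, KLK3, KLK2, TMPRSS2 and FKBP5, genes called with and without S35 (there were 0), those called without it, and the list members with the smallest p. The main fit did not pair libraries by sample number. Of 18 same-run pairs, deviations correlated at -0.062 to 0.13 and 1 was over 0.1, against -0.15 to 0.12 in other pairs. Whether runs share variation in some genes was not tested, and fits with a block on runs are given among the alternatives. A few genes and 1 gene list are not reported here.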

Additional observations from a re-analysis of the deposited data

Results flagged for a closer look

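The response to R1881 differed between siWDR77 and siCtrl cells for 43 genes by the test of the difference itself, once S35 was left out, and for 0 with it. Of these, 3 had responses called in opposite directions in the arms: COL26A1 with a difference of -0.97, TRPV6 with -0.51 and LDHA with -0.41 (log2, without S35). With all 12 libraries, LDHA and TRPV6 were again called in opposite directions within the arms, but the difference of their responses was not (adjusted p = 0.223 for both), and COL26A1 was not called in siCtrl cells. The change by WDR77 siRNA differed from the change by P3 for 2572 genes, in a test across studies whose transfection methods differed.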

How the results depend on the processing

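With all 12 libraries the count of genes with a changed response was 0, 0 with RLE size factors and with limma and library weights, 112 without the filter on low counts, 54 with DESeq2, 40 with all 24 libraries in the fit and 16 with the replicate block; leaving out 1 library gave 0 to 43, the 43 being without S35. Of the 43 genes, 25 were among the 112, 20 among the 54, 15 among the 40 and 9 among the 16. Without S35 the count was 43, 41 with RLE, 36 with limma, 146 without the filter, 95 with DESeq2, 92 with 23 libraries in the fit and 114 with the replicate block, which kept all 43, and 6 to 60 on leaving out a further library, which kept 4 to 36 of the 43. These alternatives to the fit without S35, and all those for the difference from P3, were chosen after seeing the data.

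Of genes that respond in empty-vector cells, 0 were called over 12 libraries, 69 without the filter, 27 with DESeq2, 17 with 24 libraries, 9 with the replicate block and 0 to 30 on leaving out a library. The siRNA effect in vehicle was called for 273 genes, 422 without the filter, 441 with DESeq2, 440 with limma, 491 with 24 libraries and 91 to 478 on leaving out a library (478 without S35). The siRNA effect under R1881 was called for 1291 genes and for 587 to 1983 on leaving out a library (1983 without S35). S35 is not among the libraries compared under R1881 and enters that count only through the shared spread, the scaling and the filter. Otherwise the cause of these differences was not tested. The responses in either arm and the 2572 genes that differed from P3 stayed within 1.5 times of their counts under the alternatives run.

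Uncalled values reversed sign: KLK3 was 0.102 with limma and -0.326 to 0.323 on leaving out a library (positive without S35, S23 or S37), KLK2 was -0.521 to 0.243 (positive without S35 or S23), and ENO2 was -0.0411 with limma and -0.108 to 0.229 (negative without S35 or S38). Of the markers of other cell types, on leaving out a library ITGB4 was -0.279 to 0.0277 (positive without S22), ITGA6 -0.123 to 0.0164 (positive without S7 or S36) and DLL3 -0.317 to 0.0958 (positive without S35 or S22). Library totals of 16665915 to 24029882 counts put the 3-count floor at 0.125 to 0.180 CPM; genes below the filter were not tested.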
